A study of Mus musculus with 60 samples.

Results

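Oxidative phosphorylation is carried out in the inner mitochondrial membrane by 5 protein complexes, and the present data describe the transcripts of their nuclear-encoded subunits in the mouse striatum. Genes were taken when their symbol in the platform's probe table began with Nduf, Uqcr, Atp5, Sdha, Sdhb, Sdhc, Sdhd, Cox4, Cox5, Cox6, Cox7 or Cox8. This gave 91 genes with 142 probes, of 19057 named genes on the array, and each gene was represented by its brightest probe. The prefixes also took in 8 complex I assembly factors, 4 complex II assembly factors (Sdhaf1 to Sdhaf4) and a pseudogene, Ndufs5-ps. The remaining 78 genes encode subunits: 35 of complex I (6 core and 29 accessory), 4 of complex II, 7 of complex III, 16 of complex IV and 16 of complex V. The rule itself reads symbols and, to pick the probe, mean signal.

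Striatal RNA came from C57BL/6J mice aged 8 to 10 weeks that had been injected intraperitoneally with a drug or with saline, or that were naive, and that were killed at 1, 2, 4 or 8 h. The mice were adult males. The drugs, all antagonists of the NMDA glutamate receptor, were ketamine at 20 mg/kg, memantine at a dose of 15 mg/kg and phencyclidine (PCP), of which 5 mg/kg was given. Each of the 20 groups had 3 arrays, each hybridized with RNA pooled from 2 mice. Saline arrays served as the control of the drugs, and naive arrays as the control of the injection.

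Electrons enter the chain at complex I (NADH dehydrogenase) or complex II (succinate dehydrogenase), pass through complex III to complex IV (cytochrome c oxidase), and the resulting proton gradient drives complex V (ATP synthase). Neurons depend heavily on this pathway to restore their ion gradients. Several complex IV subunits exist as isoform pairs, one found in most tissues and the other mainly in heart and muscle, testis or lung. Transcription of the nuclear genes of the chain is classically linked to the factors NRF1, GABPA (an ETS factor), YY1 and the estrogen-related receptors.

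To describe how often motifs of these factors occur in the members, their RefSeq promoter windows (300 bases around the annotated start, GRCm38.p6) were searched on both strands. A window was held for 76 of the 91 members. The NRF1 motif (GCGCATGCG or GCGCACGCG) was found for 16 members (21.1%), against 3.8% of 27025 genes. The ETS core CCGGAAG was found for 21 members (27.6%), against 9.93% of genes, and its longer form CCGGAAGT, which contains the core, for 4 (5.26%), against 4.31%. The YY1 motif AAGATGGC was found for 11 members (14.5%), against 3.19% of genes, and the ERR motif AAGGTCA for 7 (9.21%), against 5.38%. The Sp1 motif GGGCGG occurred for 39 members (51.3%), against 38.2% of genes, whereas TATAAA occurred for 9 (11.8%), against 15.7%. Letter matches are descriptions and were not tested as binding sites. The windows of Atp5k (subunit e of complex V; chr5:108434350-108434649, minus strand), Sdhd (membrane anchor of complex II; chr9:50603800-50604099, minus strand) and Cox6a1 (the widely expressed isoform of complex IV subunit 6a; chr5:115348909-115349208, minus strand) are shown. Among the members named below, these windows were picked for holding the most kinds of the NRF1, ETS core, YY1 and ERR motifs. Ties were broken by gene name. They are written 5′ to 3′ on the gene's strand, with every searched motif in capitals.
Atp5k: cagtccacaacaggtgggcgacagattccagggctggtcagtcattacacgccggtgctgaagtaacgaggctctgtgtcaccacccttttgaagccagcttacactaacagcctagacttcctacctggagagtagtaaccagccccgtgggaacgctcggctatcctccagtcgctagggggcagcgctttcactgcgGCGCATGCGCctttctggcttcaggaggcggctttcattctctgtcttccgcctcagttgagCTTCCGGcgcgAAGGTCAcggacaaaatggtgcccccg
Sdhd: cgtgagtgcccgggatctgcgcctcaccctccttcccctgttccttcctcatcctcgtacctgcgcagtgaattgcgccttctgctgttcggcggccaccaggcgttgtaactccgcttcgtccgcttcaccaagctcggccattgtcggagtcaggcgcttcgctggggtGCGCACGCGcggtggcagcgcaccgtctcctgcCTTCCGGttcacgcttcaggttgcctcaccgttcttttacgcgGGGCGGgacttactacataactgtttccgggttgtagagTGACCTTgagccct
Cox6a1: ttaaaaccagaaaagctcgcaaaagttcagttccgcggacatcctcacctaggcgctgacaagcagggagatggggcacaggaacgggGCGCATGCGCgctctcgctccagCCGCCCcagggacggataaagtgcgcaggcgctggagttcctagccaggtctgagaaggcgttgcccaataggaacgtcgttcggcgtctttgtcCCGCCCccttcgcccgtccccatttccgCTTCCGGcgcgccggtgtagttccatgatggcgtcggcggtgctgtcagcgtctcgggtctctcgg
The 3 windows, picked for their matches, each combine an NRF1 match with an ETS core. Those of Atp5k and Sdhd hold an ERR match as well.

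Most members were bright on the array. Their mean signal over the 60 arrays lay between 173.0 (Ndufaf6) and 46091.8 intensity units, and 64 of the 91 fell in the top 10% of all probes. The probe of a member was picked by this same signal, and 38 of the 91 had several probes to pick from. All probes include the dimmer ones of each gene, so these ranks are a description that the choice of probe raises. Only 6 lay below the median probe, and 3 lay below the 25th percentile: Ndufaf6, Sdha (187.9; the flavoprotein of complex II) and Ndufs1 (204.5; an iron-sulfur core subunit of complex I). Low signal of a single probe does not set the level of the gene. The low-signal filter removed Ndufaf6 and left 90 members among 44236 tested probes. Isoforms restricted to other tissues gave these signals from their own probes: 216.9 for Cox4i2 (lung), 292.7 for Cox6b2 (testis), 437.7 for Cox7a1 (heart and muscle), 291.7 for Cox8b (heart and muscle) and 215.2 for Cox8c (testis). Of these, Cox4i2 and Cox8c lay below the median probe, and Cox6b2, Cox7a1 and Cox8b above it. Of the partner isoforms, Cox4i1 gave 30006.7, Cox6a1 12971.3, Cox6b1 14166.4 and Cox7a2 1234.2 intensity units. Cox6a2, the heart and muscle form of subunit 6a, gave 1120.3. Each of these values belongs to one probe, and probes differ in brightness, so they do not rank the isoforms. Marker lists described the tissue: 10 of 16 projection neuron markers lay in the top 10% of probes, whereas 0 of 11 skeletal muscle and heart markers did. So did 7 of 10 astrocyte and 8 of 9 oligodendrocyte markers, against 4 of 11 interneuron and 1 of 9 microglia markers. The contrast with muscle does not single out the striatum within the brain.

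The comparison of each drug with saline asked whether the transcripts of the chain changed on average over the 4 time points. No member passed an adjusted p of 0.05 (limma, Benjamini-Hochberg over all probes) in the drug factor of ketamine, memantine or PCP, that is, the difference from saline averaged over the 4 time points. Over all probes, 0.0181%, 0.0543% and 0% passed. Changes were small: the median over the members was 0.055 on the log2 scale with ketamine (66 of 90 above 0), 0.052 with memantine (68 of 90) and 0.042 with PCP (65 of 90), beside 0.005, 0.003 and 0.008 over all 18935 genes. The 3 drug factors share the same 12 saline arrays, so their signs are not independent of each other. Markers of cell types were read from the same fits, and none passed: 8 choroid plexus and ependyma markers had medians of 0.50 (8 of 8 above 0), 0.09 (5 of 8) and 0.34 (8 of 8) with ketamine, memantine and PCP, and 16 projection neuron markers -0.24 (1 of 16), -0.05 (4 of 16) and -0.14 (2 of 16). Their part in the values of the members was not tested.

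At an unadjusted p under 0.05, ketamine had 5 members higher and 1 lower, memantine 4 higher and 0 lower, and PCP 7 higher and 0 lower, which is 6, 4 and 7 of 90 against 9.46%, 9.4% and 6.98% of all probes. With the BeadChip, the slide that carried 6 arrays, as a term, the counts were 12 higher and 4 lower with ketamine (13.5% of probes), 9 and 1 with memantine (10.9%) and 8 and 2 with PCP (10.1%), with none past the threshold. The 3 drugs together gave 3 such members in a moderated F-test (6.68% of probes) and none past the threshold (0.0158% of probes, smallest adjusted p of a member 0.508, Ndufb11). The 95% interval of the change lay within 1.2-fold of no change for 49 members with ketamine, 51 with memantine and 54 with PCP, and within 1.5-fold for 77, 80 and 80. The standard error (SE) of a drug factor had a median of 0.09 and ran between 0.05 (Ndufb8) and 0.40 (Atp5md), against a median of 0.12 over all genes.

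**Figure D1:**
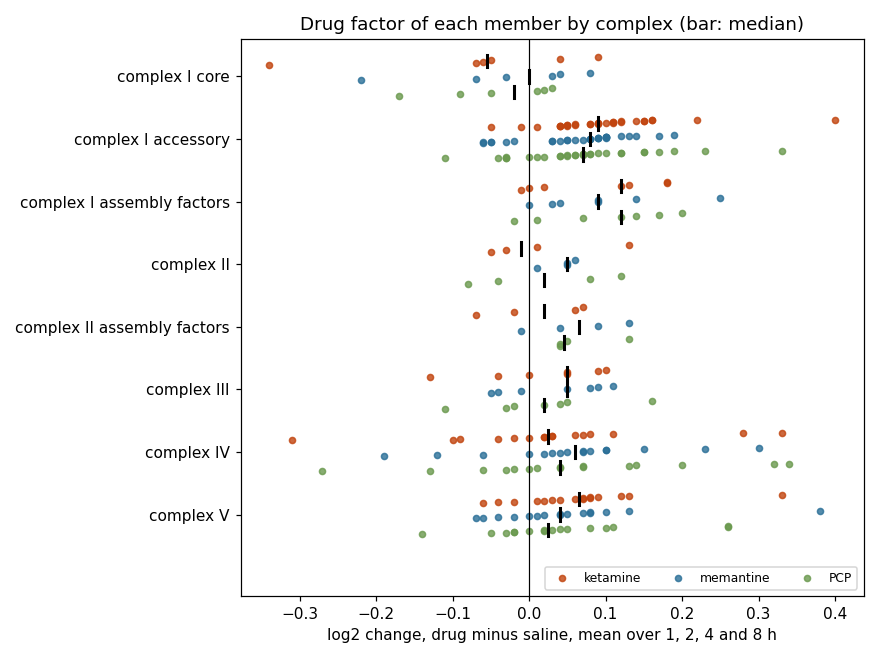
Log2 change (drug minus saline, mean over 1, 2, 4 and 8 h) of the tested members other than the pseudogene, 1 point per member and drug (12 drug arrays against 12 saline arrays), with complexes down the page and a black bar at each median. Medians lie between -0.06 and 0.12, and no point passed the threshold.

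By complex, the accessory subunits of complex I had medians of 0.09, 0.08 and 0.07 with ketamine, memantine and PCP, and its assembly factors 0.12, 0.09 and 0.12. Its core subunits stood at -0.06, 0.00 and -0.02. Complex II lay at -0.01, 0.05 and 0.02, complex III at 0.05, 0.05 and 0.02, complex IV at 0.03, 0.06 and 0.04 and complex V at 0.07, 0.04 and 0.03.

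Among the core subunits of complex I, the 3 with the smallest p over the drugs were Ndufs1, Ndufv1 (which binds the flavin that accepts electrons from NADH) and Ndufs3. Ndufs1 had changes of -0.34, -0.22 and -0.17 (SE 0.16 each) with ketamine, memantine and PCP, at adjusted p of 0.489, 0.712 and 0.882 (limma). Ndufv1 had 0.09, 0.08 and 0.01 (SE 0.07) and Ndufs3 -0.06, -0.07 and -0.09 (SE 0.07). Neither of these brighter subunits differed from saline beyond the spread of the arrays.

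Accessory subunits surround the core of complex I and stabilize it. Ndufb11, in the membrane arm, had the largest drug factor of any tested member, 0.40 with ketamine (SE 0.11, adjusted p = 0.268, limma), beside 0.14 with memantine and 0.33 with PCP. The lowest, median and highest Ndufb11 levels were 7.87, 8.10 and 8.49 in ketamine arrays, 7.37, 7.94 and 8.40 in memantine arrays, 7.63, 8.13 and 8.53 in PCP arrays, 6.92, 7.77 and 8.33 in saline arrays and 7.71, 8.08 and 8.50 in naive arrays (log2 signal, n = 12 each). All 5 ranges overlapped, and ketamine exceeded the saline mean of its time in 10 of 12 arrays. A second, dimmer Ndufb11 probe gave -0.01, -0.03 and 0.03 for the same drug factors. Ndufb7 had changes of 0.22, 0.10 and 0.23 (SE 0.08) with ketamine, memantine and PCP and lay above the saline mean in 12, 8 and 11 of 12 arrays. Ndufa3 had 0.14, 0.19 and 0.19 (SE 0.09). Ndufa4, which takes its name from complex I but is now placed with complex IV, had 0.06, -0.03 and 0.04 (SE 0.08).

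Assembly factors build the complex without staying in it. Ndufaf3 had 0.18, 0.25 and 0.20 (SE 0.10), its partner Ndufaf4 -0.01, 0.14 and 0.12 (SE 0.08), and Ndufaf8 0.13, 0.09 and 0.14 (SE 0.10), with ketamine, memantine and PCP. None reached the threshold.

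The 4 subunits of complex II link the citric acid cycle to the chain. Sdha had -0.05, 0.06 and -0.08 (SE 0.13), Sdhb, the iron-sulfur subunit, -0.03, 0.01 and -0.04 (SE 0.09), and Sdhc, a membrane anchor, 0.01, 0.05 and 0.08 (SE 0.08). Sdhd, the other anchor, had 0.13, 0.05 and 0.12, but with an SE of 0.30 that left changes past 1.5-fold within its interval. In complex III, Uqcrq had 0.05, 0.11 and 0.16 (SE 0.08), Uqcr11 0.00, 0.09 and 0.04 (SE 0.07) and the hinge protein gene Uqcrh 0.10, 0.08 and 0.02 (SE 0.08).

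In complex IV, the smallest p over the drugs belonged to Cox7a1, with 0.28, 0.30 and 0.32 (SE 0.10) for ketamine, memantine and PCP at adjusted p of 0.383, 0.355 and 0.521 (limma). Its lowest, median and highest levels were 8.13, 8.40 and 8.86 in ketamine arrays, 8.09, 8.51 and 8.70 in memantine arrays, 8.13, 8.48 and 8.64 in PCP arrays, 7.01, 8.26 and 8.49 in saline arrays and 8.13, 8.40 and 8.66 in naive arrays. The ranges overlapped, and only the saline arrays reached below 8. Without the lowest, saline 4 h replicate 3, the 3 drug factors of Cox7a1 were 0.18, 0.20 and 0.22, and saline against naive was -0.16, against -0.26 with it. The common isoforms stayed near 0: Cox4i1 had 0.06, 0.07 and 0.04 (SE 0.07), Cox6a1 0.07 with each drug (SE 0.09) and Cox6b1 0.11, 0.04 and 0.14 (SE 0.09). Cox7a2 had 0.03, 0.00 and 0.04 (SE 0.13). Of the restricted isoforms, Cox4i2 had -0.02, -0.06 and -0.06 (SE 0.11), Cox6a2 0.00, 0.08 and 0.00 (SE 0.10), Cox6b2 -0.10, 0.03 and 0.13 (SE 0.13), Cox8b 0.33, 0.10 and 0.34 (SE 0.21) and Cox8c 0.03, 0.23 and -0.13 (SE 0.15). A second, dimmer Cox6b2 probe (signal percentile 33.9) gave 0.09, 0.16 and -0.06. The ketamine value of Cox8b was 0.19 without ketamine 8 h replicate 2 and 0.53 without replicate 3. In complex V, Atp5k had 0.33, 0.38 and 0.26 (SE 0.15), Atp5o, the stalk subunit OSCP, 0.08, 0.10 and 0.11 (SE 0.06), and Atp5mpl 0.07, 0.13 and 0.00 (SE 0.09). A second, dimmer Atp5k probe (signal percentile 27) gave -0.01, 0.09 and 0.08 for the same drug factors, and -0.07 in saline against naive.

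At the single time points no member passed the threshold with any drug. The percentages of probes that passed were 0%, 0.00452%, 0.0678% and 0% for ketamine at 1, 2, 4 and 8 h. In the same order of times they were 0%, 0.00226%, 0.714% and 0% after memantine, whereas PCP gave 0.00226%, 0%, 0.0226% and 0%. Members at an unadjusted p under 0.05 were most frequent at 4 h: 7 higher and 0 lower with ketamine (10.4% of probes), 8 higher and 8 lower with memantine (15.2% of probes) and 12 higher and 0 lower with PCP (10.8% of probes). Memantine at 8 h had 11 higher and 1 lower (4.79% of probes, smallest adjusted p of a member 0.99, limma). With the BeadChip as a term in the model, the counts at 4 h were 8 higher and 1 lower with ketamine (12% of probes), 8 and 9 with memantine (14.1%) and 16 and 4 with PCP (12.8%). The counts at 8 h were larger than without it, at 21 higher and 7 lower with memantine (11.1% of probes, smallest adjusted p 0.163, limma) and 11 higher and 10 lower with ketamine (10.1% of probes, smallest adjusted p 0.186), against 0 higher and 1 lower with ketamine without it (4.68% of probes). No interaction of drug and time passed for a member. Against saline 0, 1 and 0 of 44236 probes passed with ketamine, memantine and PCP, and the smallest adjusted p of a member was 0.419 (Ndufa11 with memantine, limma). Between ketamine and PCP 2 probes passed, and the smallest was 0.203 (Cox8b).

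Over the brightest probes, the smallest adjusted p of any member in any comparison was that of Ndufaf3 with memantine at 4 h, 0.69 (SE 0.19, adjusted p = 0.0645, limma). A dimmer Sdhaf3 probe passed in the same comparison, at -0.8 (SE 0.18, adjusted p = 0.0264, limma). The brighter Sdhaf3 probe did not share this fall. By their brightest probes, the 4 complex II assembly factors, Sdhaf3 among them, lay between -0.07 and 0.45 there. The 2 Sdhaf3 probes were close in signal (percentiles 84.5 and 86.9), so the direction for the gene is not settled. Ndufaf3 stood at 9.19, 9.11 and 9.47 in memantine 4 h arrays, against 8.78, 8.81 and 8.10 in saline 4 h arrays and 9.11, 9.20 and 9.16 in naive 4 h arrays (log2 signal). The memantine and saline arrays did not overlap, while the memantine and naive arrays did. Against naive arrays the change was 0.10 (SE 0.19, adjusted p = 0.989). PCP at 4 h gave 9.02, 9.28 and 9.43 and ketamine 9.09, 8.55 and 9.04. Cox7a1 at 4 h followed a similar order, with 8.56, 8.70 and 8.20 in memantine arrays against 8.05, 8.35 and 7.01 in saline arrays, and a change of 0.68 (SE 0.21, adjusted p = 0.0903, limma). One saline array lay more than 1 log2 unit below the other 2. With a filter that kept only probes above the 25th percentile on all arrays, Ndufaf3, Cox7a1 and Atp5j passed with memantine at 4 h, at adjusted p of 0.0248, 0.0386 and 0.0412 (limma), which is 3 of the 81 members left, where 4.99% of the 17390 probes left passed.

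Atp5j, which encodes coupling factor 6 of ATP synthase, had the smallest adjusted p of the members that were lower with memantine at 4 h, and it, Uqcrc1 and Ndufc2 were chosen after their values were seen. Atp5j stood at 13.62, 13.20 and 13.26 in memantine 4 h arrays, against 13.91, 13.83 and 13.64 in saline arrays and 13.69, 13.94 and 13.66 in naive arrays. No memantine array reached the lowest control array, though replicate 1, at 13.62, lay close to it (13.64). The change was -0.43 (SE 0.14, adjusted p = 0.117, limma) against saline and -0.40 (SE 0.14, adjusted p = 0.948) against naive. A second, dimmer Atp5j probe (signal percentile 87.8) had no adjusted p below 0.368 (limma) in any drug, injection or drug pair comparison. Uqcrc1, a core protein of complex III, had -0.39 (SE 0.14) against saline and -0.30 (SE 0.14) against naive arrays. Ndufc2, an accessory subunit of complex I, had -0.57 (SE 0.19) and -0.42 (SE 0.19). The memantine arrays of Ndufc2 were split, at 13.11, 12.16 and 12.23, against 13.07, 13.06 and 13.06 in saline arrays. For both Ndufc2 and Atp5j the lower arrays were memantine replicates 2 and 3. Those arrays also had the higher raw signal, with 90th percentiles of 2128 and 3467 intensity units, against 1263 for replicate 1. The part of this difference in the values was not tested. Markers that passed with memantine at 4 h were Gjb6 of astrocytes (0.87, adjusted p = 0.0244, limma), Tek of endothelium (-0.77, 0.037), Pdgfrb of mural cells (-1.10, 0.0275) and Rasgrp2 of projection neurons (-0.97, 0.0495), 1 each of 10, 10, 11 and 16 in their lists, whose medians were 0.07, -0.25, 0.08 and -0.05. Their part in the values of the members was not tested.

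**Figure D2:**
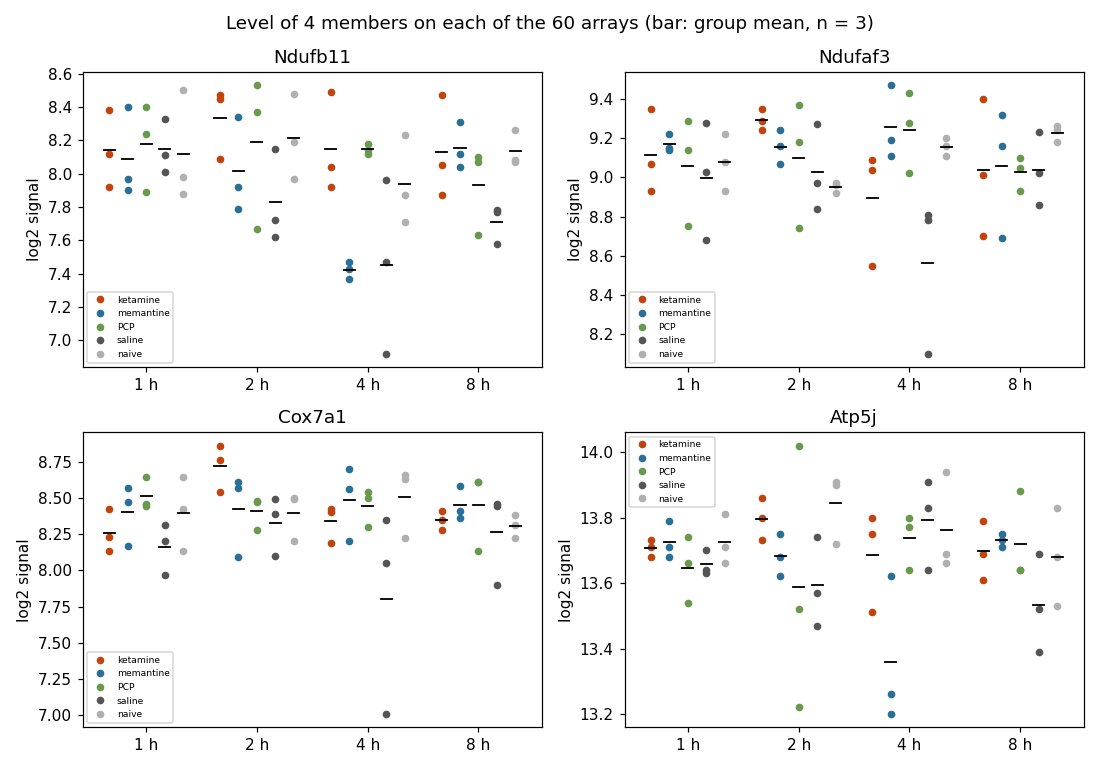
Log2 signal of Ndufb11, Ndufaf3, Cox7a1 and Atp5j on each of the 60 arrays, with drugs, saline and naive side by side at 1, 2, 4 and 8 h and a bar at each group mean (n = 3). At 4 h the lowest group mean is that of saline for Ndufaf3 (arrays at 8.10 to 8.81) and Cox7a1 (7.01 to 8.35), and that of memantine for Atp5j (13.20 to 13.62).

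The memantine 4 h values depended on how arrays were scaled. At 4 h, the 90th percentile of the raw signal was 1263, 2128 and 3467 intensity units in the memantine arrays, against 1527, 1029 and 1541 in the saline arrays. With median scaling in place of quantile normalization, the median member changed by 0.932 and 60 of 90 members passed with memantine at 4 h, where 20.3% of all probes passed and the median of all genes itself was 0.403. Quantile normalization gives every array the same distribution, and with it the median member changed by 0.021 with memantine at 4 h, beside 0.016 for all genes. The changes above are those after quantile normalization.

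The comparison of saline with naive mice asked what the injection itself did. No member passed in the mean over the 4 times (0.00226% of probes) or at 1, 2, 4 or 8 h (0%, 0%, 0.244% and 0% of probes). The median member was lower in saline arrays by a log2 difference of -0.051, and 25 of 90 lay above 0, beside -0.01 over all genes. At an unadjusted p under 0.05, 0 members were higher and 9 lower (8.81% of probes), and likewise 0 and 9 at 4 h (11.8% of probes), where the median was -0.143. With the BeadChip as a term, 3 were higher and 13 lower in the mean (10.7% of probes), and 4 and 7 at 4 h (11.4% of probes). The 8 choroid plexus and ependyma markers also differed at 4 h. Their mean lay between -0.66 and -0.46 in saline 4 h arrays, against 0.12 to 1.07 in naive 4 h arrays. Of the 8, 0 had a change above 0, and Clic6 passed at -1.07 (adjusted p = 0.0159, limma). Naive arrays were high for these markers at 4 h, with a group mean of 0.69, against -0.03, -0.31 and -0.36 at 1, 2 and 8 h. At 4 h the other group means were -0.58 with saline, -0.44 with ketamine, -0.34 with memantine and 0.11 with PCP. The 16 projection neuron markers had a median of 0.10 in the mean over the times, with 15 of 16 above 0, and 0.22 at 4 h, with 9 of 16 above 0. Their part in the values of the members was not tested. Ndufb11 had -0.32 (SE 0.11, adjusted p = 0.387, limma), Cox7a1 -0.26 (SE 0.10), Ndufb7 -0.19 (SE 0.08) and Atp5k -0.31 (SE 0.15) in the mean over the times. At 4 h the values were -0.70 (SE 0.21, adjusted p = 0.123) for Cox7a1 and -0.88 (SE 0.26, adjusted p = 0.125) for Cox6b2. Cox6b2 stood at 7.10, 7.13 and 6.80 in saline 4 h arrays, against 7.71, 7.98 and 7.98 in naive 4 h arrays, without overlap. Its probe was among the dimmer ones of the members (292.7 intensity units). In the mean over the times it gave -0.08, and a second, dimmer probe -0.09.

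With naive arrays as the control in place of saline, the median drug factor of the members was 0.007 with ketamine (47 of 90 above 0), -0.006 with memantine (40) and 0.001 with PCP (46), and 0 members had an unadjusted p under 0.05 in any of the 3 (limma, 0 past the threshold), beside 2.99%, 3.13% and 2.66% of probes under 0.05 and 0, 8 and 2 probes past the threshold. At 4 h the medians against naive were -0.002 with ketamine, -0.10 with memantine and -0.002 with PCP. The small positive medians against saline were not seen against naive arrays. Memantine at 4 h had 0 members higher and 13 lower at an unadjusted p under 0.05 against naive arrays (5.19% of probes), with a smallest adjusted p of 0.655 (limma). The 3 arrays that correlated least with the others were all saline arrays (4 h replicates 3 and 1 and 1 h replicate 3, mean r 0.934, 0.94 and 0.943). Without them, the median of saline against naive at 4 h was -0.033, a value that rests on the 1 saline 4 h array left.

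**Figure D3:**
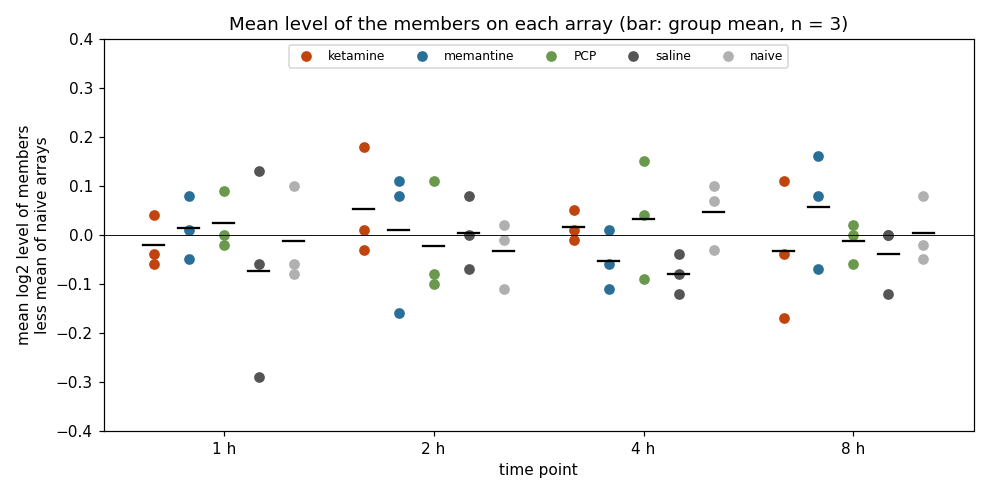
Mean log2 level of the 90 tested members on each array, less the mean of the naive arrays, for drugs, saline and naive at each time (bar: mean of 3 arrays). Groups overlap at most times, and the lowest array (-0.29) is a saline array at 1 h while the highest (0.18) is a ketamine array at 2 h.

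Arrays ranged between -0.29 and 0.18 in the mean of the members, and the SD within groups was 0.099. At 4 h, saline arrays lay between -0.12 and -0.04, against -0.03 to 0.10 in naive arrays. These sets did not overlap. They did over the 78 members for which the BeadChip took less than 75% of the variance. Those values were -0.18 to 0.00 in saline and -0.03 to 0.07 in naive arrays. Partner genes of the pathway were read from the same fits. Of 28 genes for cytochrome c and assembly factors, 15 for pyruvate dehydrogenase and the citric acid cycle, 10 for carriers, porins and uncoupling proteins and 17 for regulators of mitochondrial biogenesis, none passed in a drug factor, and their medians lay between -0.07 and 0.05. The 33 cytosolic ribosomal protein genes had medians of 0.05, 0.01 and 0.06 with ketamine, memantine and PCP, and the 31 proteasome genes 0.05, 0.03 and 0.02.

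The drugs were also set against each other in 3 pairs. The doses differed (20, 15 and 5 mg/kg), and only 1 dose of each drug was given. No member and no probe passed (0%, 0% and 0% for ketamine against memantine, ketamine against PCP and PCP against memantine). Unadjusted p fell under 0.05 for 2, 0 and 1 of 90 members, beside 3.84%, 3.24% and 3.41% of probes (limma). The medians of the differences were 0.007, 0.005 and -0.005, and the 95% interval lay within 1.2-fold for 58, 64 and 60 of 90 members. For the other members, differences of that size were not excluded by their intervals.

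The 4 time points were compared within the saline and within the naive arrays, of which the naive mice had no injection. In naive arrays no member and no probe passed over the 4 times (0%), and 1 member was under an unadjusted 0.05 (2.23% of probes). This was Cox8b, the heart and muscle isoform of subunit 8, with an adjusted p of 1 (limma). In saline arrays no member passed (0.197% of probes), and 9 had an unadjusted p under 0.05 (10.8% of probes, smallest adjusted p 0.347, Sdhaf2). The other 4 members with the smallest p for time in naive arrays were Cox7b2, Ndufaf7, Atp5pb and Ndufs1, at unadjusted p of 0.0823, 0.0894, 0.141 and 0.193 (limma).

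Cox8b differed between arrays as follows. Its levels were 8.97, 7.40 and 8.84 in PCP 1 h arrays, against 6.75, 7.37 and 6.35 in saline 1 h arrays, and 9.08, 8.73 and 8.34 in ketamine 2 h arrays, against 7.01, 7.98 and 8.09 in saline 2 h arrays. It stood at 8.01, 8.99 and 7.57 in naive 4 h arrays. The changes were 1.58 (SE 0.41, adjusted p = 0.837, limma) for PCP at 1 h and 1.03 (SE 0.41, adjusted p = 0.89) for ketamine at 2 h. Ketamine 2 h arrays were all above their saline arrays, whereas 1 of the 3 PCP 1 h arrays lay near its controls. The mean of 8 choroid plexus and ependyma markers, less the mean of the naive arrays, was 1.37, -0.34 and 1.76 in the same PCP 1 h arrays, 1.77, 1.42 and 1.27 in the ketamine 2 h arrays and 0.88, 1.07 and 0.12 in the naive 4 h arrays (log2), against -0.46, -0.43 and -0.59 in saline 1 h arrays and -0.40, -0.31 and 1.41 in saline 2 h arrays. Over treatments the list mean ran between -0.53 and 1.77 in ketamine, -0.55 and 0.61 in memantine, -0.47 and 1.76 in PCP, -0.79 and 1.41 in saline and -0.48 and 1.07 in naive arrays, and 0 of the 8 markers lay below the 25th percentile of signal. The part of these cells in the Cox8b values was not tested, and fewer cells of a type and less RNA per cell cannot be told apart in tissue RNA.

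The largest variation among the members followed the BeadChip and not the treatment. The first principal component held 53.9% of the variance of the members over the 60 arrays. Values were centred but not scaled, so the members that vary most weigh most in it. The BeadChip took 89.2% of that component, against 0.71% for the treatment. For 12 members the BeadChip took at least 75% of the variance over the 60 arrays, a limit set after seeing the values, beside 235 of all 18935 genes (1.24%). The last member inside was Cox7a2 (77.5%) and the first outside Atp5h (67.3%), which encodes subunit d of complex V. They were Atp5e, Atp5a1 and Atp5md of complex V (92.2%, 88.1% and 81.8%), Ndufb5, Ndufb10, Ndufb9, Ndufb2 and Ndufb4 of complex I (90.9%, 87%, 86.7%, 85.6% and 82%), the assembly factor Ndufaf2 (86.2%), Sdhd (87%), Cox7b (77.6%) and Cox7a2. The median BeadChip share was 31% over the members and 20.8% over all genes, where 15.3% would arise with no effect.

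The BeadChip means of Atp5md, a small subunit of ATP synthase, spanned 7.97 to 10.44, which is 5.55-fold, and its single arrays 7.36 to 11.24. Atp5a1, the alpha subunit of the ATP synthase head, spanned 10.38 to 12.63 (4.76-fold) and Ndufb4 8.04 to 10.35 (4.97-fold). Cox7a2 spanned only 9.70 to 10.38 (1.6-fold). For the treatments, the mean of the 12 members less that of the naive arrays was 0.12 ± 0.55 with ketamine, 0.10 ± 0.68 with memantine, 0.14 ± 0.58 with PCP, 0.07 ± 0.62 with saline and 0.00 ± 0.58 in naive arrays (SD, n = 12). These values are a description, since the 12 members were picked for their BeadChip share. BeadChips 2, 5, 1 and 10 were high, at 0.92 ± 0.20, 0.75 ± 0.11, 0.54 ± 0.07 and 0.39 ± 0.08, and BeadChips 3, 6 and 4 low, at -0.75 ± 0.29, -0.60 ± 0.12 and -0.59 ± 0.19 (SD, n = 6 arrays). Means of the other 78 members stayed between -0.07 and 0.03 on the 10 BeadChips, and the BeadChip took 20.4% of the variance of their mean. Some of these 78 also had high shares, such as Atp5h (67.3%) and Atp5g3 (47.8%). Their correlations with the mean of the 12 were 0.77 and -0.61, so opposite shifts can cancel in the mean of the 78. Single arrays also stood apart within a BeadChip: the saline 4 h replicate 1 array, at 0.88, on BeadChip 9, whose mean was 0.17, and the memantine 4 h replicate 3 array, at 1.28, on BeadChip 2.

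**Figure D4:**
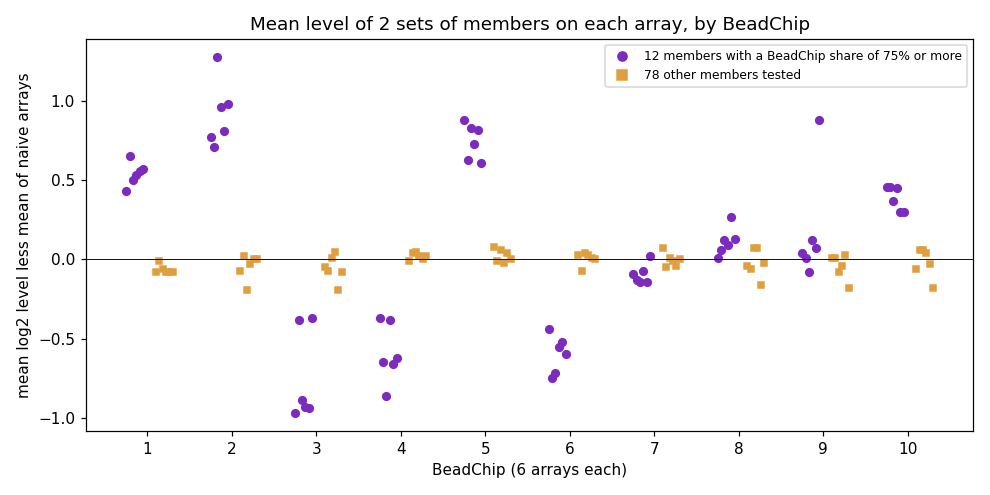
Mean log2 level, less the mean of the naive arrays, of the 12 members with a BeadChip share of 75% or more (circles) and of the 78 other members (squares) on each array, grouped by BeadChip (6 arrays each). The circles run between -0.97 and 1.28 and shift together by BeadChip, while the squares stay between -0.19 and 0.08.

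Some probes of the same gene differed in this respect. Of 37 members with several tested probes, 4 had their brightest probe over the 75% limit and 1 of these also a dimmer one, while 2 had only a dimmer probe over it. Atp5a1, Atp5md, Ndufb2 and Ndufb10 had a second tested probe. The dimmer probe of Ndufb10 had a BeadChip share of 87.6% and that of Atp5a1 36.9%. The dimmer probes of Atp5md and Ndufb2 had 14.6% and 13.5%, but lay at the 3.3 and 3.5 percentiles of signal, too dim to compare. Conversely, the dimmer probes of Ndufa5 and Ndufaf5 had shares of 89.9% and 92%, while their brightest probes had 35.5% and 49.9%. With BeadChip as a term, the SD of an array within its group fell to 0.26 for Atp5a1, against 0.98 without it, and to 0.38 for Atp5md, against 1.06. No member passed in any drug, injection or drug pair comparison in that fit (smallest adjusted p 0.079, Ndufb11 with ketamine, limma). Groups were spread over the BeadChips, and 16 pairs of arrays of 1 time shared a BeadChip across a treatment and a control. In these pairs the median difference of the members lay between -0.08 and 0.19 for drug minus saline (8 pairs, ketamine or PCP only). It lay between -0.10 and 0.10 for drug minus naive (8 pairs, memantine or PCP only). No pair set memantine against saline or ketamine against naive.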

How the data were processed

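Striatal RNA was hybridized to Illumina MouseWG-6 v2 arrays (60 arrays, 20 groups of 3, 10 BeadChips of 6). The authors deposited a table of non-normalized probe intensity values and a table of log2 values, which per the study's methods came from the beadarray package after background subtraction and quantile normalization. Here the deposited intensity values were corrected with normexp (offset 50), quantile-normalized and log2-transformed in limma 3.58.1 (R 4.3.3). The authors' log2 values were an alternative. A probe was kept where 3 or more arrays had it above their 25th percentile (44236 of 45281). A model with 20 group means (40 residual degrees of freedom) gave moderated tests, adjusted by Benjamini-Hochberg over all kept probes at 0.05. The step was tested on simulated arrays with known changes, independent noise and no BeadChip shift. That test therefore does not cover members that shift together with the BeadChip. Array depth is not a read count, so the number of arrays limits the precision.

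The members and gene lists were chosen with earlier results of these data known. Genes named were the 3 per complex with the smallest p over the drugs, the isoforms and complex II subunits listed by name, and the 5 with the smallest p for time in naive arrays. Others are said to be chosen after their values were seen. Cox8a and Ndufa4l2 were not analysed here. P-values measure the spread between arrays of pooled RNA. Replicate numbers did not pair arrays: the mean correlation of deviations was -0.007 for equal and 0.003 for different numbers within a time. The alternatives were other background corrections, scalings, filters, controls, batch terms and arrays left out.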

Additional observations from a re-analysis of the deposited data

How the results depend on the processing

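No member passed in the comparisons as reported, and 332 of 339 counts of members called under other settings were equal to the main count. The exceptions concerned 4 h. With memantine, 1 member passed with the authors' log2 values (Ndufaf3, 0.59; 1.49% of probes), 1 without background correction (1.41%), 3 with the filter on all arrays (4.99%), 1 with the BeadChip as a random block (1.17%), 1 over every probe of the members (a dimmer Sdhaf3 probe; 0.714%) and 60 with median scaling (20.3%). In saline against naive, 2 passed with median scaling (0.635%). The random block and every-probe settings, and that without 3 saline arrays, were chosen after seeing the data.

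Under median scaling the all-probe median differed from its main value by 0.082, 0.121 and 0.068 in the ketamine, memantine and PCP factors and by -0.095 in saline against naive. With it the median member was 0.222, 0.368 and 0.206 for the ketamine, memantine and PCP factors and -0.282 for saline against naive. Of 23 member medians 7 changed sign: -0.19, -0.044 and -0.29 for ketamine, memantine and PCP at 8 h (main 0.008, 0.088 and 0.032), 0.366 for PCP at 2 h (main -0.006), -0.103 and 0.093 for saline against naive at 2 and 8 h (main 0.034 and -0.037) and -0.126 for ketamine against memantine (main 0.007). Of the named members, Ndufs3 reversed, at 0.08 for PCP and -0.18 for saline against naive. With naive arrays as the control, the values that changed sign were 0.00 and -0.02 for Ndufv1 with ketamine and memantine, -0.05, -0.01 and 0.00 for Ndufa3 with ketamine, memantine and PCP, -0.02 for Ndufaf3 with ketamine, -0.07 and -0.06 for Ndufaf8 with ketamine and PCP, and -0.05 for Atp5k with PCP. With memantine they were -0.18 for Ndufb11, -0.10 for Ndufb7, -0.03 for Uqcrq and 0.00 for Atp5mpl, and -0.02 for Ndufb11 with both controls pooled. The causes were not tested. In all, 16 of 771 named values beyond their SE changed sign, as did 117 within it.

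Leaving out 1 array, the median member ranged over 0.036 to 0.073 with ketamine, 0.04 to 0.074 with memantine, 0.019 to 0.062 with PCP and -0.073 to -0.036 in saline against naive. Counts at 4 h ranged over 0 to 3 with ketamine, 0 to 3 with memantine, 0 to 5 with PCP and 0 to 4 in saline against naive. Without saline 4 h replicate 2 they were 3, 2, 5 and 4 of 90, where 1.37%, 2.56%, 2.28% and 2.52% of probes passed. That setting left saline 4 h replicates 1 and 3, the arrays that correlated least with the others (mean r 0.94 and 0.934), so its counts rest on them. Without memantine 4 h replicate 1 the memantine count was 3 (1.44% of probes), and without saline 4 h replicate 1 it was 2 (3.03%). Without any other array the count was 0. With the replicate block, 0 members passed and the medians were 0.055, 0.052 and 0.042 for the 3 drug factors; 12 of 60 arrays correlated best with their own number. At single times 0 to 3 of 90 intervals lay within 1.2-fold, so differences of that size were not detectable for most members.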
